A study of Mus musculus with 24 samples.

Results

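The genes described here are Nfe2l2, which encodes the transcription factor NRF2, and 9 of its antioxidant and detoxification targets: Gclc, Gclm, Slc7a11, Gsr, Txnrd1, Srxn1, Nqo1, Hmox1 and Osgin1. These 10 genes, of 37074 gene names on the array, were matched by name in the array annotation. Each was represented by the probe of that name with the highest mean Cy5 signal over all arrays. Of the 10, 9 passed the filter on dim probes, among 18649 gene names that passed it, and Slc7a11 did not.

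NRF2 is held at a low level in unstressed cells because KEAP1 presents it to a CUL3 ubiquitin ligase, and oxidants or electrophiles that modify KEAP1 let it accumulate. It then pairs with a small MAF protein and binds antioxidant response elements in the promoters of enzymes that make and recycle glutathione, run the thioredoxin system, reduce quinones and degrade haem, while BACH1 competes for the same elements at genes such as Hmox1. In liver these enzymes are best known for the response to reactive drug metabolites, which hepatocytes produce and conjugate.

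The liver came from 24 mice of the inbred strain C57BL/6JRcc, all labelled female, 12 on each of 2 semi-synthetic diets. GLU mice received glucose as their only monosaccharide, and GLU+GAL mice received glucose and galactose 1:1. In both diets monosaccharides gave 32% of energy, starch 32%, protein 20% and fat 16%. All mice were weaned onto their diet at 3 weeks of age, ate it for 3 weeks, and were killed on postnatal day 42 in the light phase after food was withdrawn, so no group on standard chow and no fed group was compared. RNA of the right liver lobe was labelled with Cy5 and hybridised, 1 mouse per array, against a Cy3-labelled pool of all mice. Values are log2 ratios of a mouse over that pool. The dyes were never swapped, so the offset of a gene from 0 carries no information, and only differences between mice do. The comparison asks whether replacing part of the glucose with galactose after weaning altered the expression of this pathway in liver.

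Each of 3 slides held 4 arrays of each diet. Depending on the array, 46.6% to 51.3% of spots exceeded background in Cy5 and 36.5% to 47.8% in Cy3. The lowest Cy3 share belonged to GLU+GAL 4, whose pool channel had a median correlation of 0.968 with the other arrays, against at least 0.990 elsewhere. Its mean over 3 measured skeletal muscle markers was 0.91, the highest of all mice, and the next was 0.29. The library labelled GLU+GAL 12 went against its label, since the Y-linked genes Eif2s3y and Ddx3y were above background on that array alone and Xist on the other 23 alone. Diet differences of the genes described here, over all slides, are given both ways where they moved by over 1.5 times, or crossed a threshold, without these arrays. Correlations among these genes, or with gene groups, that passed the adjusted threshold by Pearson r are also given both ways. Counts and differences of the marker and other gene lists, and most other correlations, are given with all mice only. Among 10 hepatocyte markers, which include Alb and Ttr, all were measured on these arrays, and the mean of 9 was lower in GLU+GAL. The mean of 14 of 15 Kupffer cell markers was also lower. In 6 genes of each list, all lower, the unadjusted p of limma was below 0.05 (2.65% of all genes were lower at that p), and none passed the adjusted threshold. In whole tissue, fewer cells of a type and less RNA per cell cannot be told apart.

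Promoter bases of the members were searched for the element that NRF2 binds, and they are printed for those that the results turn on or that carry the closest matches. RefSeq windows of 300 bases, from 250 before to 50 after the annotated start, were at hand for 7 of the 10 members in build GRCm38.p6, as 9 windows, of which 3 belonged to Txnrd1. Gclc, Hmox1 and Gsr had no entry. Windows were searched on both strands for the core of the antioxidant response element, written TGACNNNGC, and for its relaxed form TGANNNNGC, which contains every match of the core. The core was found in 4 of the 9 windows, against 12.4% of all 32851 windows, and the relaxed form in 7 of 9, against 41.3%. The bases upstream of the start are printed 5′ to 3′ on the strand of the gene, with matches to the relaxed form in capitals. They lie at chr2:75704664-75704913 (Nfe2l2, minus strand), chr3:122245307-122245556 (Gclm, plus strand), chr2:152105274-152105523 (Srxn1, plus strand), chr10:82858956-82859205 (Txnrd1, plus strand, the second of its windows) and chr8:119436897-119437146 (Osgin1, plus strand).
Nfe2l2: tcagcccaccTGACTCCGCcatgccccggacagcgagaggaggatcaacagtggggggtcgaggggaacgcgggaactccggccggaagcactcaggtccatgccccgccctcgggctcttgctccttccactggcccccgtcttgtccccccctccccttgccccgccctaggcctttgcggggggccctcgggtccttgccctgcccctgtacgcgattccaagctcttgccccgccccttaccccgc
Gclm: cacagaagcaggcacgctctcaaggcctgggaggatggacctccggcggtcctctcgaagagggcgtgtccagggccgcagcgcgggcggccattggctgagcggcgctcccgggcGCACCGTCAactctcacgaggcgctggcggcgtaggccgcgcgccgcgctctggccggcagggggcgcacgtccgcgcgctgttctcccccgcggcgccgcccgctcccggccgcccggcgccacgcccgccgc
Srxn1: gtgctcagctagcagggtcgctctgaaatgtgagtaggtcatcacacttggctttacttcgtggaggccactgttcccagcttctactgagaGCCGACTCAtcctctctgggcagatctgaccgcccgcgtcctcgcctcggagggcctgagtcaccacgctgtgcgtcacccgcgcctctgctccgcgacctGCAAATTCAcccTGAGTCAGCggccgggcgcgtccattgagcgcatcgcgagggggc
Txnrd1: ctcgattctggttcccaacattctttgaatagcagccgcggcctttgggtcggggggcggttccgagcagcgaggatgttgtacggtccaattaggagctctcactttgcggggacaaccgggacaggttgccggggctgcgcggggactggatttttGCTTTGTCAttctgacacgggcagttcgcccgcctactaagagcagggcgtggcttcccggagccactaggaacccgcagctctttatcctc
Osgin1: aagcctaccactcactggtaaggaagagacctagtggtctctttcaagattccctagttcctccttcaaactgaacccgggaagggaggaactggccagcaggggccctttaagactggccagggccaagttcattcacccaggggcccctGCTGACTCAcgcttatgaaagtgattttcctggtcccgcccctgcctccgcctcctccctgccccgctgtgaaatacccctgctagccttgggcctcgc
The single matches of Nfe2l2 (TGACTCCGC), Gclm (GCACCGTCA) and this Txnrd1 window (GCTTTGTCA) were core matches, the last 2 on the opposite strand. Counted from the start, they began at positions -240, -134 and -92. Srxn1 had 3 relaxed matches upstream (GCCGACTCA, GCAAATTCA and TGAGTCAGC) and a core match at position 29 after the start. The match of Osgin1, GCTGACTCA, began at position -99 and was of the relaxed form only. Slc7a11 had 3 relaxed matches in its window and Nqo1 none. A match describes the letters in these windows and is not a measured binding site.

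None of the 9 measured members differed between the diets past an adjusted p of 0.05 in limma with Benjamini-Hochberg adjustment, and none had an unadjusted p below 0.05. With the slide as a block the unadjusted limma p of Hmox1 was 0.0439, and no member passed the adjusted threshold there. Over all 18649 genes the percentage called at the adjusted threshold was 0.0, with a lowest adjusted p of 0.516, and 4.31% had an unadjusted p below 0.05 (2.65% lower and 1.66% higher in GLU+GAL). The mean of 8 of the 9 members was lower in GLU+GAL, against 49.2% of all genes, and the median of the 9 differences was -0.04 on the log2 scale, against 0.00 over all genes. In the log2 values of the authors' deposited table, the mean of 5 of the 9 was lower, so the members' share of lower means depended on the processing. The median difference over all genes was 0.0117 in that table, against 0.0013 here, and their share of lower means there was not counted. The 24 mice overlapped between diets in every measured member. Means below are log2 ratios with the SD over 12 mice per diet, differences are GLU+GAL minus GLU with the limma standard error, and the limma adjusted p of each of the 9 members was 0.999.

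**Figure D1:**
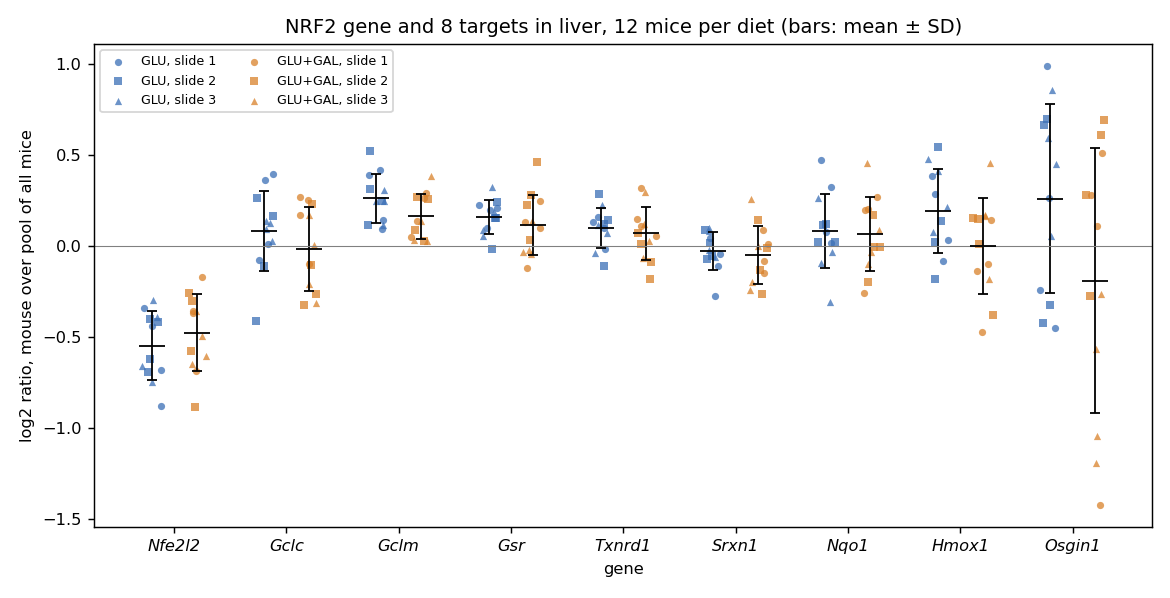
Log2 ratio of each mouse over the pool of all mice (y axis) for 9 measured genes (x axis), blue for GLU and orange for GLU+GAL, with the slide as marker shape and the mean ± SD over 12 mice in black. Osgin1 spans from -1.42 to 0.99, wider than any other gene drawn, and the diets overlap in all 9.

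Nfe2l2 (NM_010902; probe at mm9 chr2:75513771-75513830) was the 1 member with a higher mean in GLU+GAL. In GLU mice its log2 ratio ran from -0.88 to -0.30 with a median of -0.53, and in GLU+GAL mice from -0.89 to -0.17 with a median of -0.44. The means were -0.55 ± 0.19 (SD, n = 12) and -0.48 ± 0.21 (SD, n = 12), a difference of 0.07 ± 0.08. Only 2 GLU+GAL mice lay above the highest GLU mouse, so the diets were interleaved. NRF2 is controlled mainly through protein stability, which an RNA measurement does not see. A second Nfe2l2 probe, to another transcript model, was above background on all arrays, differed by -0.02 ± 0.08, and correlated with the first across mice at r = -0.15, so the 2 probes did not rank the mice alike.

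Gclc (NM_010295; probe at mm9 chr9:77641296-77641355) encodes the catalytic subunit of glutamate-cysteine ligase, the rate-limiting enzyme of glutathione synthesis. Its log2 ratio ran from -0.42 to 0.39 in GLU mice, with a median of 0.11, and from -0.33 to 0.27 in GLU+GAL mice, with a median of -0.05. The means were 0.08 ± 0.22 (SD, n = 12) and -0.02 ± 0.23 (SD, n = 12), a difference of -0.10 ± 0.09. The lowest of all 24 values was in a GLU mouse, GLU 11, and 2 GLU mice lay above every GLU+GAL mouse. Gclm (NM_008129; probe at mm9 chr3:121967737-121967796) encodes the modifier subunit, which raises the activity of the catalytic one. It ran from 0.09 to 0.52 in GLU mice with a median of 0.24, and from 0.02 to 0.38 in GLU+GAL mice with a median of 0.13. Its difference was -0.10 ± 0.06, with an unadjusted limma p of 0.0845. For Gclm 5 GLU+GAL mice lay below the lowest GLU mouse and 3 GLU mice above the highest GLU+GAL mouse. Without GLU+GAL 4 and GLU+GAL 12 the Gclm difference was -0.12, with an unadjusted limma p of 0.0457.

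Slc7a11, the cystine importer that feeds glutathione synthesis, could not be compared. On the brightest of its 4 probes (NM_011990; mm9 chr3:50169700-50169759) no GLU array and 2 GLU+GAL arrays were well above background in Cy5. The Cy5 signal ran from 43.5 to 55.9 in GLU mice with a median of 51.2, and from 46.4 to 125 in GLU+GAL mice with a median of 54.7. The mean local background of this probe was 36.0, so most arrays lay close to it.

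Gsr (NM_010344; probe at mm9 chr8:34808488-34808547), glutathione reductase, returns oxidised glutathione to its reduced form with NADPH. It ran from -0.02 to 0.32 in GLU mice with a median of 0.17, and from -0.12 to 0.46 in GLU+GAL mice with a median of 0.11. The means were 0.16 ± 0.09 (SD, n = 12) and 0.11 ± 0.17 (SD, n = 12), a difference of -0.04 ± 0.06. Both the lowest and the highest of the 24 values were in GLU+GAL mice, with 4 below the lowest and 1 above the highest GLU mouse.

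Txnrd1 (NM_001042523; probe at mm9 chr10:82360230-82360289), the cytosolic thioredoxin reductase, ran from -0.11 to 0.28 in GLU mice with a median of 0.11, and from -0.18 to 0.32 in GLU+GAL mice with a median of 0.06. The difference was -0.03 ± 0.06. Its second probe differed by -0.08 ± 0.12 and followed the first only weakly across mice, at r = 0.25. Srxn1 (NM_029688; probe at mm9 chr2:151937009-151937068), sulfiredoxin, restores over-oxidised peroxiredoxins. It ran from -0.28 to 0.10 in GLU mice with a median of -0.04, and from -0.27 to 0.25 in GLU+GAL mice with a median of -0.05, a difference of -0.02 ± 0.06. The highest Srxn1 value was that of GLU+GAL 12. Nqo1 (NM_008706; probe at mm9 chr8:109912440-109912499), a quinone reductase often used as the readout of NRF2 activity, ran from -0.31 to 0.47 in GLU mice with a median of 0.05, and from -0.26 to 0.45 in GLU+GAL mice with a median of 0.04. Its difference was -0.02 ± 0.08, and 6 GLU+GAL mice lay on each side of the GLU mean.

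Hmox1 (NM_010442; probe at mm9 chr8:77624406-77624466), the inducible haem oxygenase, is expressed in liver macrophages (Kupffer cells) as well as in stressed hepatocytes. It ran from -0.18 to 0.54 in GLU mice with a median of 0.17, and from -0.48 to 0.45 in GLU+GAL mice with a median of 0.08. The means were 0.19 ± 0.23 (SD, n = 12) and 0.00 ± 0.26 (SD, n = 12), a difference of -0.20 ± 0.10 with an unadjusted limma p of 0.0509. In 11 of 12 GLU+GAL mice Hmox1 lay below the GLU mean, and the exception, GLU+GAL 3, was among the highest of all mice at 0.45. Some of the 11 lay close to that mean, such as GLU+GAL 12 at 0.17 and GLU+GAL 11 at 0.14. The GLU median was also below it. How often other genes had such a count was not examined. Without GLU+GAL 4 and GLU+GAL 12 the difference was -0.23 with an unadjusted limma p of 0.0326. Across mice with diet means removed, Hmox1 and the mean of the 15 Kupffer cell markers had r = 0.41 (permutation p = 0.0491, adjusted p = 0.241). The Kupffer mean ran from -0.14 to 0.62 in GLU mice and from -0.49 to 0.29 in GLU+GAL mice. Its part in the Hmox1 difference was not tested.

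Osgin1 (NM_027950; probe at mm9 chr8:121970077-121970136), oxidative stress induced growth inhibitor 1, had the widest difference and by far the widest spread of the members. It ran from -0.46 to 0.99 in GLU mice with a median of 0.35, and from -1.42 to 0.69 in GLU+GAL mice with a median of -0.08. The means were 0.26 ± 0.52 (SD, n = 12) and -0.19 ± 0.73 (SD, n = 12), a difference of -0.45 ± 0.24 with an unadjusted limma p of 0.0672. The difference varied in sign and size between slides. On slide 1 the Osgin1 difference was -0.27, on slide 2 it was 0.17, and on slide 3 it was -1.25. On slide 3 the 4 GLU mice lay between 0.05 and 0.85 and the 4 GLU+GAL mice between -1.19 and -0.26, without overlap. How many of all genes were without overlap on that slide was not counted. Within that slide limma gave an unadjusted p of 0.000194, which did not pass the adjustment over all genes. A test of whether the Osgin1 difference varied between slides, added after the within-slide values were seen, gave an unadjusted limma p of 0.0351 and an adjusted p of 0.522. That interaction had an unadjusted p below 0.05 for 8.45% of all genes. Slide 3 also held GLU+GAL 4 and GLU+GAL 12, and without both the difference over all slides was -0.36. Off slide 3 the lowest GLU+GAL mouse was GLU+GAL 8 at -1.42, while the others on slides 1 and 2 lay between -0.28 and 0.69.

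**Figure D2:**
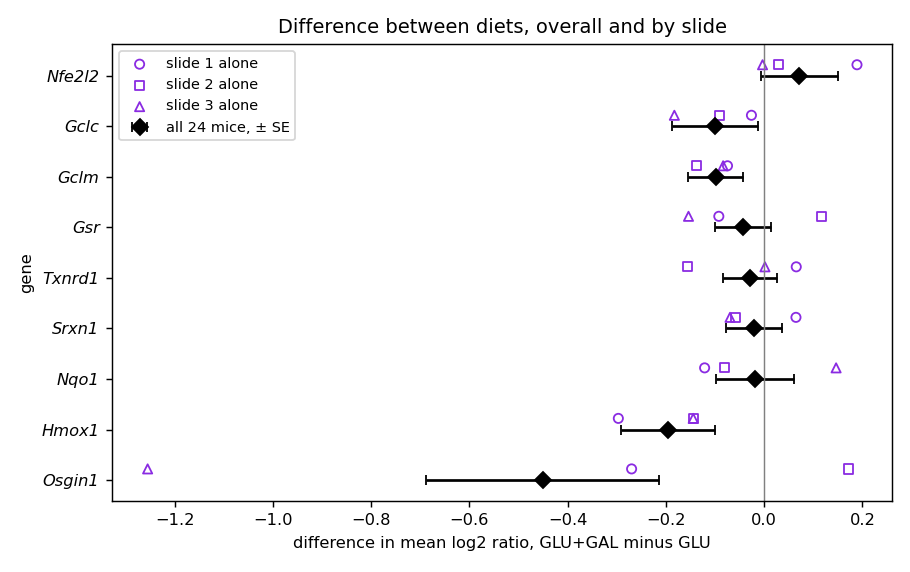
Difference in mean log2 ratio, GLU+GAL minus GLU (x axis), for 9 genes (y axis), with the standard error over all 24 mice (black diamonds) and the difference within each slide of 4 mice per diet (open symbols). Only Gclc, Gclm and Hmox1 lie below 0 on all 3 slides, and the Osgin1 slides run from -1.25 to 0.17.

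Within slides, 6, 6 and 7 of the 9 members had a lower mean in GLU+GAL on slides 1, 2 and 3. The median difference over all genes was -0.0048, -0.0148 and 0.0255 there. The share of all genes with a lower mean, on a slide or on all 3, was not counted. Gclc (-0.03, -0.09 and -0.18), Gclm (-0.07, -0.14 and -0.08) and Hmox1 (-0.30, -0.14 and -0.14) were lower on each slide, as differences of log2 ratios. Gsr, Txnrd1, Srxn1 and Nqo1 each changed sign between slides. Without GLU+GAL 4 and GLU+GAL 12 the differences of Txnrd1, Srxn1 and Nqo1 were each -0.06, larger in size than with all mice, and 8 of the 9 means were lower.

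The members differed widely in how much they varied between mice on one diet. The SD of the log2 ratio, pooled over the diets, was 0.63 for Osgin1, higher than that of 99.4% of all genes, and the highest Osgin1 value was 5.32-fold the lowest. Hmox1 followed with an SD of 0.25 (percentile 84.9), then Gclc with 0.23 (percentile 78.9), Nqo1 with 0.20 (percentile 70.0) and Nfe2l2 with 0.20 (percentile 67.8). Their highest values were between 1.64-fold and 2.03-fold the lowest. Srxn1, Gsr, Gclm and Txnrd1 lay together at SDs of 0.13 to 0.14, at percentiles 25.8, 25.3, 22.3 and 22.2, with ranges of 1.41-fold to 1.49-fold. On these probes both enzymes of the thioredoxin system, glutathione reductase and the modifier subunit varied less than most genes. The catalytic subunit Gclc, also a glutathione enzyme, varied more. The second Txnrd1 probe was more variable, as its difference had a limma standard error of 0.12, against 0.06 for the probe used. The Osgin1 SD was between 0.63 and 0.66 under the other normalisations and between 0.58 and 0.65 with any 1 mouse left out.

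**Figure D3:**
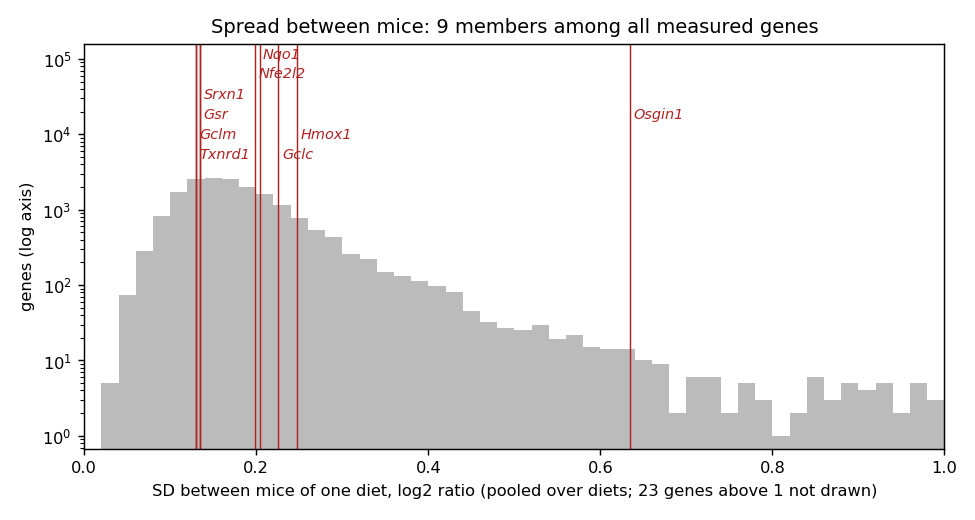
Histogram of the SD between mice of one diet for all measured genes (x axis, log2 ratio; y axis, number of genes on a log axis), with the 9 members as red lines. Osgin1 stands at 0.63 in the upper tail and 4 members lie between 0.13 and 0.14; 23 genes above 1 are not drawn.

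Whether the members rose and fell together across mice was examined by correlating all 36 pairs of the 9 measured genes with diet means removed. The test was a 2-sided permutation test with 100000 resamples within diets, adjusted over the 36 pairs. The 2 subunits of glutamate-cysteine ligase were the 1 pair past the threshold. Gclc and Gclm had r = 0.68 (permutation p = 0.00049, adjusted p = 0.0176) and rho = 0.65 (permutation p = 0.00077, adjusted p = 0.0277) over 24 mice. Without the 2 mice farthest from the Gclc median r was 0.62, within slides it was 0.89, 0.70 and 0.83, and with any 1 mouse left out it stayed between 0.65 and 0.75. Without GLU+GAL 4 and GLU+GAL 12 it was 0.67 (permutation, adjusted p = 0.0446). With the replicate number as a block it was 0.51, and the pair did not pass. Both values of a mouse come from one array and share its normalisation.

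Gclc and Txnrd1 had the next highest correlation, r = 0.55 (permutation p = 0.00605, adjusted p = 0.109), with 0.52, 0.51 and 0.68 within slides. This r was 0.42 in Cy5 alone, 0.51 with Agilent processed signals and 0.54 in the deposited table. Over all other settings, which include probe averaging and the replicate block, it ran from 0.12 to 0.62. Srxn1 and Txnrd1 had r = 0.46 (permutation p = 0.0337, adjusted p = 0.404), and here slide 1 ran the other way, at -0.44, while slides 2 and 3 had 0.60 and 0.93. Without GLU+GAL 12 it was 0.34. Nfe2l2 and Gsr had r = 0.41 (permutation p = 0.0583, adjusted p = 0.525). Nfe2l2 RNA itself correlated with the 8 measured targets at r between -0.24 and 0.41, 5 of them below 0. Osgin1 and Hmox1 had r between -0.25 and 0.27 with every other measured member.

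Over the 36 pairs the median r was 0.01, and over all pairs of the 18649 genes it was also 0.01. An r of at least 0.5 was found in 2 of 36 pairs (5.56%), against 4.73% of all pairs, and an r of at most -0.5 in none, against 3.46%. Both shares were near or below those of all genes.

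**Figure D4:**
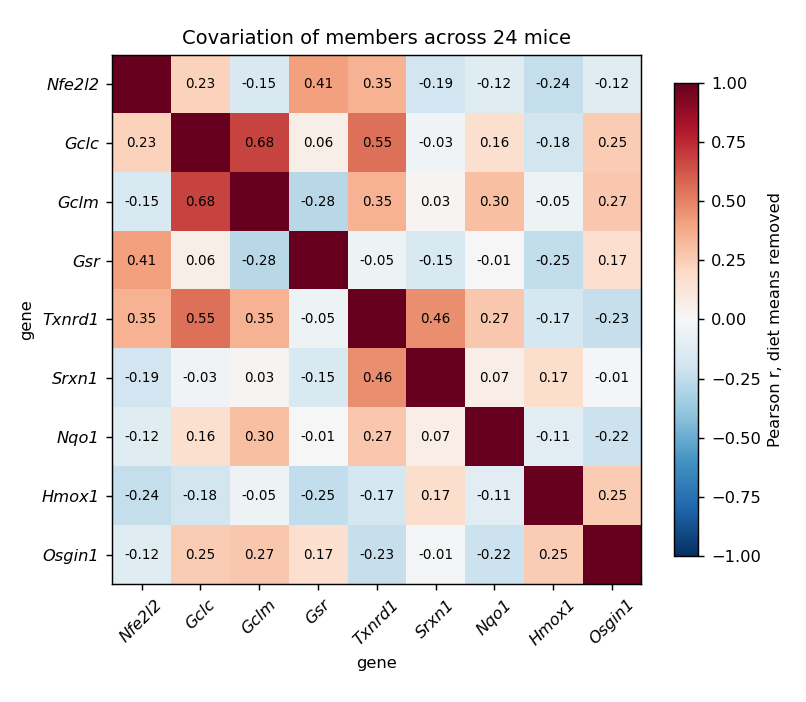
Pearson r between each pair of the 9 measured members across 24 mice with diet means removed (colour and printed value; both axes list genes). The pairs of Gclc with Gclm (0.68) and with Txnrd1 (0.55) are the highest, and the other 34 pairs run from -0.28 to 0.46.

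Members were also set against 6 gene groups that share targets or cells with this pathway: ATF4 targets, aryl hydrocarbon receptor genes, targets of the xenobiotic receptors CAR and PXR, and markers of Kupffer cells, hepatocytes and skeletal muscle. Of the 54 relations between a member and the mean of a group, 2 passed the adjustment by Pearson r. How many of all genes had such an r with these means was not counted, so the relations are not shown to be particular to the members. Txnrd1 and the mean of 3 measured aryl hydrocarbon receptor genes had r = 0.71 (permutation p = 0.00023, adjusted p = 0.0124) and rho = 0.76 (permutation p = 4e-05, adjusted p = 0.00216). Without the 2 mice farthest in Txnrd1 r was 0.69, and within slides it was 0.82, 0.58 and 0.76. Of the 3 genes, Ahr, the receptor, had r = 0.55 with Txnrd1, Tiparp, a repressor induced by it, 0.38, and Cyp1a2, a cytochrome P450 of caffeine oxidation, 0.30. With probes averaged per gene, in Txnrd1 and in the group alike, r was 0.29 and the adjusted permutation p 0.602. The relation thus depended on how probes were combined. The second Txnrd1 probe alone was not set against the group.

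Nqo1 and the mean of 8 CAR and PXR targets had r = 0.66 (permutation p = 0.00063, adjusted p = 0.017) and rho = 0.67 (permutation p = 0.00068, adjusted p = 0.0184). Without the 2 mice farthest in Nqo1 r was 0.59, and within slides it was 0.62, 0.41 and 0.88. The single targets had r with Nqo1 of 0.75 for Abcb1a, a drug efflux pump, 0.63 for Cyp3a25, 0.61 for Cyp2c55 and 0.55 for Cyp2b10, down to 0.29 for Cyp3a11, all drug-metabolising cytochromes P450 but the first. The relation missed the adjusted threshold in the deposited table (r = 0.60, adjusted permutation p = 0.0599) and with means of diet within slide removed (r = 0.70, adjusted permutation p = 0.0616). It also missed it without GLU 9 (r = 0.63), GLU 10 (0.61) or GLU+GAL 4 (0.63). Without both GLU+GAL 4 and GLU+GAL 12 neither relation passed: r was 0.64 for Txnrd1 and 0.62 for Nqo1, each with an adjusted permutation p of 0.0732.

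**Figure D5:**
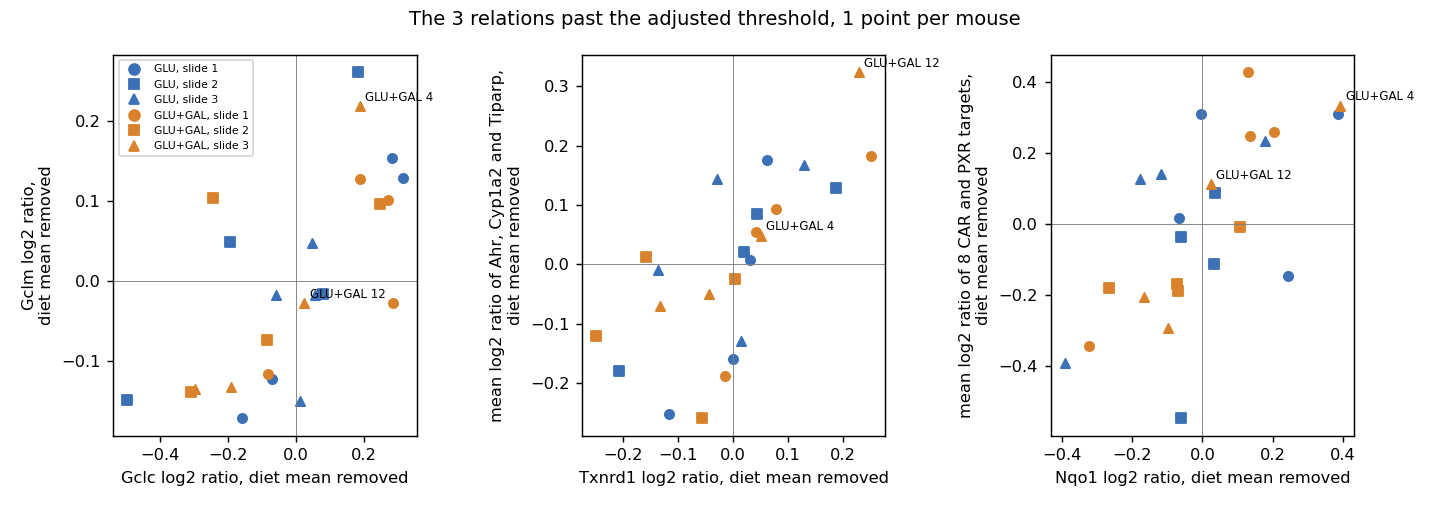
Each mouse's log2 ratio with its diet mean removed: Gclm against Gclc (left), the mean of 3 aryl hydrocarbon receptor genes against Txnrd1 (middle) and the mean of 8 CAR and PXR targets against Nqo1 (right), coloured by diet and shaped by slide. The r values are 0.68, 0.71 and 0.66, and GLU+GAL 12 (middle) and GLU+GAL 4 (right) lie at the upper right.

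By Pearson r, other relations stayed short of the threshold. Gclc and Txnrd1 had r = 0.54 and 0.52 with the CAR and PXR mean (adjusted permutation p = 0.0978 for both). By rho the Txnrd1 relation passed (rho = 0.62, adjusted permutation p = 0.0409), and that of Gclc did not (rho = 0.55, adjusted permutation p = 0.122). Txnrd1 had r = -0.52 with the Kupffer mean and -0.53 with the ATF4 mean (adjusted permutation p = 0.0978 for both). Nqo1 and the muscle mean had r = 0.46, which was 0.20 without GLU+GAL 4.

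The genes most like each member, by r across the 24 mice with diet means removed, are a description of these arrays and carry no test. For Gclm they were Mss51 (r = 0.82), Psme4 (0.80) and the transcript XR_140812 (0.79), and for Gclc they were Gbp5 (0.80), the transcript ENSMUST00000050753 (0.76) and Lmbrd2 (0.75), so Gclm was not among the 3 nearest to Gclc. For Gsr they were Yars2 (0.86), Psmb6 (0.83) and Psmd13 (0.81). For Srxn1 they were Pex11g (0.76), Pex2 (0.75) and Lgals8 (0.73). For Txnrd1 they were Pvrl1 (0.79), Apol7a (0.77) and Pkp4 (0.77), and for Osgin1 Tgif1 (0.76) and Skil (0.73). For Nqo1 they were Poldip2 (0.80), the probe named NAP094322-001 (0.80) and Aspdh (0.80), for Hmox1 Teddm2 (0.76), Mrpl40 (0.75) and Capn11 (0.74), and for Nfe2l2 Rfwd2 (0.79), Rpl23 (0.78) and Tmem81 (0.78). No member was among the 3 nearest genes of another. The share of all genes at r of at least 0.5 with a member ran from 1.15% for Osgin1 to 6.12% for Nqo1.

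The rest of the pathway was described by lists of its regulators and of further target enzymes, in which no gene passed the adjusted threshold of limma. The counts below stand beside 49.2% of all genes with a lower mean, 2.65% lower and 1.66% higher at an unadjusted p below 0.05. Of 13 regulators and partners of NRF2, all measured, 7 had a lower mean in GLU+GAL and 1 had an unadjusted p below 0.05. That gene was Sqstm1, the autophagy receptor p62 that binds KEAP1 and is itself an NRF2 target. Its mean log2 ratio was 0.20 in GLU and 0.06 in GLU+GAL mice, a difference of -0.15 ± 0.05 (limma, unadjusted p = 0.00562, adjusted p = 0.985). The differences of the core regulators were -0.08 ± 0.05 for Keap1, -0.10 ± 0.06 for Cul3, 0.03 ± 0.07 for the repressor Bach1, -0.01 ± 0.10 for the partner Mafg and 0.03 ± 0.06 for the NRF2 relative Nfe2l1. Bach2 differed by -0.23 ± 0.13.

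Among 15 measured enzymes of glutathione and thioredoxin metabolism 9 had a lower mean and none an unadjusted p below 0.05. The smallest p values there belonged to thioredoxin, Txn1 (-0.09 ± 0.05), and peroxiredoxin 1, Prdx1 (-0.09 ± 0.06). Of 27 measured conjugation and reduction enzymes 12 had a lower mean and 15 a higher one. Gstp1, a glutathione transferase, was the 1 gene of that list with an unadjusted p below 0.05, at -0.22 ± 0.08 (limma, unadjusted p = 0.0127, adjusted p = 0.999), and another transferase, Gstm2, differed by 0.27 ± 0.15 in the opposite direction. Of 6 enzymes of NADPH supply and the pentose phosphate pathway 5 had a lower mean. The differences were -0.26 ± 0.14 for G6pdx, which opens that pathway, and -0.05 ± 0.05 for Taldo1, a later enzyme of it. Of 9 genes of haem and iron handling 5 had a lower mean, with 0.12 ± 0.07 for the ferritin heavy chain Fth1 and -0.05 ± 0.04 for ferrochelatase, Fech. Of 5 efflux pumps 4 had a lower mean, with -0.09 ± 0.08 for Abcc4 and -0.06 ± 0.07 for Abcc1. Of 4 enzymes that remove superoxide or peroxide 3 had a lower mean, with -0.06 ± 0.06 for Sod3 and -0.09 ± 0.08 for catalase, Cat. The medians of these 7 lists lay between -0.06 and 0.02, beside 0.00 for all genes.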

How the data were processed

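The authors deposited scanner files with Cy5 and Cy3 intensity values per spot and flags for signals above background. Per the submitters' processing notes the software was Agilent Feature Extraction 10.7.3.1. A table of log2 values deposited by the authors, of 29287 spots, matched the Cy5 channel. With genes not centred, r was 0.993 to 0.999 with log2 Cy5 and 0.956 to 0.994 with log2 Cy3. With genes centred, 24 columns were closest to their own array in Cy5 and 0 in Cy3. Each column's median was 8.6, and the sources used here do not state the scaling of the table.

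Mean signals were background-corrected by normexp (offset 50) and normalised by loess within arrays in limma 3.58.1 under R 4.3.3. Control spots and outlier flags were left out. Probes well above background in Cy5 on at least 6 arrays of 1 diet were kept, 26675 of 56605. Diets were compared with lmFit and eBayes over all 24 arrays, without a block, with Benjamini-Hochberg adjustment over 18649 genes. Whether replicate numbers pair mice is not stated, and they were not taken as pairs. Gene symbols and probe positions are those of the array design. Whether mice shared a litter or cage is not stated.

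Named were all members, 5 core regulators, the 2 smallest p values of each pathway list and the 3 nearest genes of each member, of which 1 is not reported here. The members and lists were chosen with earlier results of these data known. The fit and the permutation test were tested on simulated data. Alternatives covered background correction, normalisation, the filter, probe averaging, blocks, slides and single arrays. Arrays give no read depth: their number and the signal over background limit precision.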

Additional observations from a re-analysis of the deposited data

Results flagged for a closer look

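Slc7a11 entered no comparison because its probe was dim, yet 2 GLU+GAL arrays were well above background where no GLU array was. Its Cy5 signal was 125 on GLU+GAL 7 and 73.4 on GLU+GAL 12, against a highest GLU signal of 55.9. On the same spots the pool gave 174, well above background, on GLU+GAL 7 and 74.7, not well above background, on GLU+GAL 12. The pool holds the same RNA on every array, and its signal at this probe ran from 42.3 to 338 with a median of 59.8.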

How the results depend on the processing

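No member passed the adjusted limma threshold under any alternative, and the median member difference ran from -0.08 to -0.0033 over the other settings and from -0.07 to -0.03 with 1 mouse left out. The count of all genes past the threshold ran from 0 to 1 with 1 mouse left out (1 without GLU 3). Of genes at an unadjusted p below 0.05, 38.7% were lower in the deposited table, against 61.4% here, and Txnrd1 (0.0058), Gsr (0.031) and Srxn1 (0.017) changed sign there. Signs also changed in Cy5 alone for Nqo1 (0.026), and on single slides for Osgin1 (slide 2, 0.17), Txnrd1 (slide 1, 0.065; slide 3, 0.0015), Nfe2l2 (slide 3, -0.0034), Nqo1 (slide 3, 0.15), Gsr (slide 2, 0.12) and Srxn1 (slide 1, 0.065). Nqo1 ran from -0.054 to 0.017 with 1 mouse left out. The causes were not tested.

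Same-numbered mice of the 2 diets correlated at -0.38 to 0.52, with a median of 0.16, 8 of 12 pairs above 0.1 and 2 of 12 best matched to their own number. Not every pair was above 0.1, so the numbers were not taken as pairs. That rule does not settle whether they pair mice, and 6 of the 12 pairs also shared a slide. With the replicate block 0 member pairs passed in place of 1 (Gclc and Gclm, r = 0.51), and 0 genes passed (lowest adjusted p 0.111 against 0.516, and 1123 against 804 genes at an unadjusted p below 0.05, Hmox1 at 0.0139 and Osgin1 at 0.0247 among them). With array weights 1200 of the 18649 genes, against 804 without them, had an unadjusted limma p below 0.05. Among these were 3 members: Hmox1 (0.025), Gclm (0.0274) and Osgin1 (0.0463). Without a block 1 pair passed with any 1 mouse left out, and the median r ran from -0.04 to 0.09. Relations of members with gene groups past the threshold numbered 1 in the deposited table and 1 with means of diet within slide removed (Nqo1 lost in both), 1 with probes averaged (Txnrd1 lost) and 0 without GLU+GAL 4 and GLU+GAL 12, the last chosen after seeing the data; they ran from 1 to 3 with 1 mouse left out. With rho in place of r, Txnrd1 and the CAR and PXR mean also passed (adjusted permutation p = 0.0409). The promoter search had no processing alternative beyond its relaxed motif.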
